A study of Mus musculus with 12 samples.

Results

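The genes of sterol and fatty acid synthesis were followed in 2 mouse natural killer (NK) cell lines, KY-2 and KY-1, with and without forced expression of the transcription factor Myb. The 31 genes encode the enzymes that build cholesterol and long-chain fatty acids, the regulators that set the amounts of these enzymes, and a pair of lipid exporters. They form a list by function, which was drawn up with earlier results of these data known. Each was read from a probe set that the array annotation pairs with 1 symbol only, and the brightest over the 12 arrays was taken where a gene had several. This found 30 of the 31 genes among 19938 genes tested. Acat2 had no such probe set and was not analysed here.

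The groups were KY-2 cells with a GFP-P2A-FLAG-Myb vector (3 arrays), KY-2 cells with a vector for GFP alone (2 arrays), KY-1 cells with the Myb vector (4 arrays) and KY-1 cells with the GFP vector (3 arrays). Cells of all 4 groups lacked p53, were cultured in human IL-15 at 200 U/mL, and were sorted as GFP positive before total RNA was taken. Values are log2 expression summaries, so a difference of 1 is a 2-fold change. Each group's cells came from 1 line, so a difference between KY-2 and KY-1 is one between those lines and was not repeated over other lines. A pair of KY-1 GFP arrays, and a pair of KY-1 Myb arrays, differed from each other by less than separate samples did, and each pair was averaged and counted as 1 replicate. This left 3 replicates in each Myb group and 2 in each GFP group. Nothing given says whether replicates were grown apart. The p-values therefore cover the spread among these samples, and part of that spread may be technical alone.

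Cholesterol is made from acetyl-CoA through mevalonate, then through farnesyl diphosphate, squalene and lanosterol. Fatty acids share the acetyl-CoA supply. The genes of both routes are read by the SREBP transcription factors, which are made as membrane proteins of the endoplasmic reticulum. SCAP carries SREBP to the Golgi for cleavage when sterols are scarce, and INSIG proteins hold SCAP back when sterols are plentiful. Excess cholesterol is exported by ABC transporters under the control of the LXR receptors. Activated lymphocytes are known to use this programme for membrane growth, and in NK cells SREBP activity is known to accompany metabolic activation by cytokines.

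The promoter windows of 4 genes are shown because their genes carry the results below: Lss passed the test with Myb, Mvd had a difference of 1.0 between the lines with Myb, Hmgcs1 was the 1 matched member with the sterol regulatory element letters, and Insig1 encodes a feedback regulator of the pathway. The windows are from RefSeq on build GRCm38.p6 and run from 250 bases before to 50 after the annotated start, so the last 50 bases lie in the transcript. Lss lies at chr10:76531355-76531654 on the plus strand, Hmgcs1 at chr13:119690101-119690400 on the plus strand, Mvd at chr8:122443373-122443672 on the minus strand and Insig1 at chr5:28071162-28071461 on the plus strand. Each is written 5′ to 3′ along its gene. Capitals mark the letters TCACNCCAC (sterol regulatory element), CACGTG (E-box), CCAAT (NF-Y box) and the Myb forms CAACNG and TAACNG, on either strand, so that ATTGG is CCAAT on the other strand.
Lss: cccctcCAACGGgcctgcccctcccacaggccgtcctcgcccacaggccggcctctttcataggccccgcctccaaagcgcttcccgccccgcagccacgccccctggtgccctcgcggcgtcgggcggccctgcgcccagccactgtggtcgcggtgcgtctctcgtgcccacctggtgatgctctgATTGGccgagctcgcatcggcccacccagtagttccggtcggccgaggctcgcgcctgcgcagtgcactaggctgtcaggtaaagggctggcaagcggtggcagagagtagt
Hmgcs1: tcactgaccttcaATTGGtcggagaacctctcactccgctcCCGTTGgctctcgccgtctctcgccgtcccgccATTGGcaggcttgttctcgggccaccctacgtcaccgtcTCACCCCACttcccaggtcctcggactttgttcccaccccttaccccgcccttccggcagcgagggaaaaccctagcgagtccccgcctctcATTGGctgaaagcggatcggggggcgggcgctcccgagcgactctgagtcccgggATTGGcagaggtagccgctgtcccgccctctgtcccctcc
Mvd: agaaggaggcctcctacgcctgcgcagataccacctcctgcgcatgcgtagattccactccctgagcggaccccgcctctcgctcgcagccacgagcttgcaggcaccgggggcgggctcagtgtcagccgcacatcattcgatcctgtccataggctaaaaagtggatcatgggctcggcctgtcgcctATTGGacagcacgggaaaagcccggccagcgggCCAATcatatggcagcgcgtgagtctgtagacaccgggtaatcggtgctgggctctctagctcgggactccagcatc
Insig1: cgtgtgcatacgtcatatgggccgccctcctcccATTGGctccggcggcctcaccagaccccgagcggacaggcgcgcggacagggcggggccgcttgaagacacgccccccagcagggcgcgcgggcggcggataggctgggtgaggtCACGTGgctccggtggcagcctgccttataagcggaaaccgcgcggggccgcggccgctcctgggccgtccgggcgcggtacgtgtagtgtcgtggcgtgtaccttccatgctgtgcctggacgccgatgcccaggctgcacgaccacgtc
The capitalised runs of these 4 windows do not overlap one another. The Lss window held 1 CCAAT and 1 CAACNG match, Hmgcs1 held 4 CCAAT, 1 TCACNCCAC and 1 CAACNG, Mvd held 2 CCAAT and Insig1 held 1 CCAAT and 1 CACGTG.

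Windows were matched for 25 of the 30 genes, 5 of which had over 1 window, and Fdps, Fdft1, Sqle, Stard4 and Abcg1 had none in the table. CCAAT stood in a window of 21 of the 25 genes (84%), beside 41.7% of the 15614 tested genes with a window. GGGCGG, the GC box, which is not capitalised above, stood in 20 of 25 (80%), beside 52.9%. CACGTG stood in 7 of 25 (28%), beside 9.5%, and TCACNCCAC in 1 of 25, beside 1.4%. Either Myb form stood in 10 of 25 (40%), beside 50.9%. These shares describe letters in a fixed window. A match is not a binding site, and a window without one leaves sites elsewhere unexamined.

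The vectors were checked first on the Myb gene itself. Myb stood at 9.80, 9.67 and 9.75 in the 3 KY-2 Myb replicates, against 5.0 and 5.10 in the KY-2 GFP replicates. In KY-1 it stood at 9.59, 9.57 and 9.54 with the Myb vector, against 7.94 and 8.04 with GFP. The difference was 4.69 ± 0.08 in KY-2 and 1.58 ± 0.08 in KY-1 (log2 ± SE of the limma model). The KY-2 GFP values lay below their array medians and are not shown to be above background. Among markers of other cell types, 3 of 11 T cell genes (Cd3g, Cd8a and Cd28) stood above 8 in KY-2, against 0 of 11 in KY-1, while 6 of the 11 with Myb and 7 with GFP lay below the median gene in KY-2. Cd3e was at 5.70 with Myb and 5.32 with GFP in KY-2, against 5.80 with Myb and 6.22 with GFP in KY-1. The mast cell gene Kit was at 7.87 with Myb and 8.07 with GFP in KY-2, against 10.30 with Myb and 10.39 with GFP in KY-1. The NK receptor gene Ncr1 lay near the array medians in KY-2, at 5.34 with Myb and 5.43 with GFP, against 7.76 with Myb and 9.72 with GFP in KY-1, while 10 to 12 of 15 NK markers stood above 8 in every group. No B cell (7), myeloid (12) or fibroblast (5) marker passed 8.

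Forced Myb expression moved few of the 30 genes past the test. In KY-2, Lss alone was called higher and 0 were called lower (limma, adjusted p under 0.05 over all genes), where 2.83% of all genes were called (1.28% higher and 1.55% lower). In KY-1, 0 of 30 passed by limma, where 1.22% of all genes were called (0.612% higher and 0.612% lower). There 7 of the 30 had an unadjusted limma p under 0.05, beside 2192 of the 19938 genes. Averaged over both lines, Lss again was the 1 gene called, where 3.1% of all genes were called (1.52% higher and 1.58% lower). The median difference of the 30 genes was 0.045 in KY-2 and -0.087 in KY-1, beside 0.011 and -0.001 over all genes.

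The intervals give, gene by gene, how large an uncalled difference could be among these samples. Like the p-values, they cover only the spread among these samples, and they are not joint over the 30 genes. In KY-1 the 95% interval of every one of the 30 differences lay within a 1.5-fold change in either direction, and the bound furthest from 0, of Hsd17b7, was -0.51. In KY-2 the interval of 29 of the 30 lay within 1.5-fold, and Lss, the exception, reached 0.68 and lay within 2-fold.

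**Figure D1:**
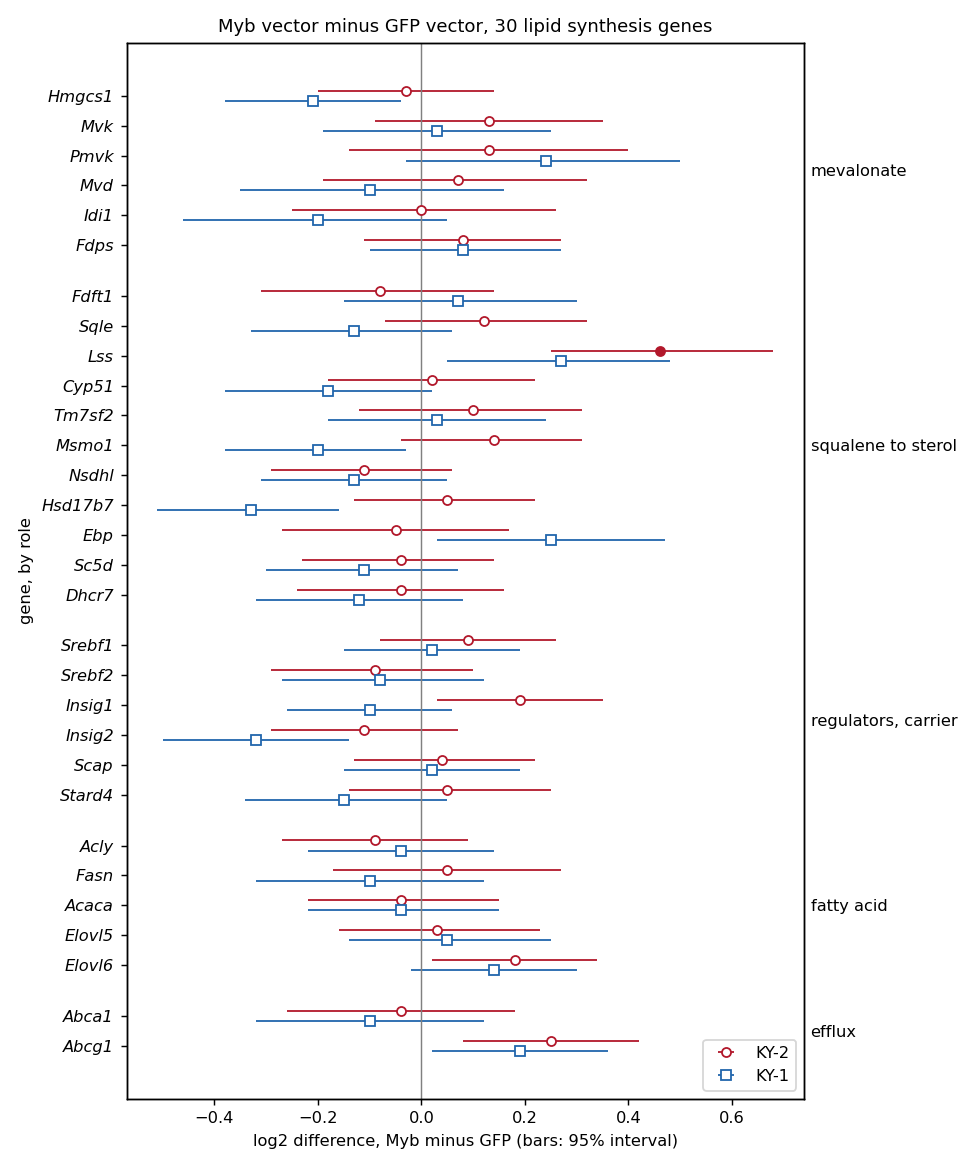
Difference between the Myb vector and the GFP vector (log2, x axis) for each of the 30 genes, in KY-2 and in KY-1. Points are limma estimates, bars their 95% intervals, and a filled marker has an adjusted p under 0.05. Lss in KY-2 is the 1 filled marker, at 0.46, and the other points lie nearer 0.

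Lss, lanosterol synthase, closes squalene epoxide into lanosterol, the first sterol of the pathway. Its values were 7.73, 7.92 and 7.80 in KY-2 Myb replicates, against 7.39 and 7.32 in KY-2 GFP replicates. They were 8.0, 7.79 and 7.78 in KY-1 Myb replicates, against 7.53 and 7.65 in KY-1 GFP replicates. In both lines every Myb replicate lay above every GFP replicate. The KY-2 difference was 0.46 ± 0.10, a 1.38-fold rise (limma adjusted p = 0.0263), and the average over the lines was 0.36 ± 0.07 (limma adjusted p = 0.0138). The KY-1 difference was 0.27 ± 0.10 and did not pass (limma adjusted p = 0.324), and the test of the difference between the lines' effects did not pass either (0.20, 95% interval -0.10 to 0.50, adjusted p = 0.677). Both GFP groups hold 2 replicates. The KY-2 call was lost in 7 of 21 other settings, among them leaving out KY-2 GFP replicate 1 or 2, or KY-2 Myb replicate 2 or 3, and the average was lost without KY-2 GFP replicate 1 or 2 or without the averaged pair of KY-1 GFP arrays. Over all settings the KY-2 difference lay between 0.41 and 0.51 (largest adjusted p 0.181 by limma) and the average between 0.33 and 0.40 (largest adjusted p 0.075 by limma). In the same comparison the summed T cell markers (11 genes) ran at 12.74 to 12.81 in KY-2 Myb. In KY-2 GFP they ran at 12.96 to 13.06. This sum was carried mainly by Cd3g (12.19 with Myb, 12.30 with GFP) and Cd8a (10.36 and 11.0). Among the T cell markers that differed the other way, uncalled, were Cd3e at 0.38 and Cd5 at 0.14. Cd4 lay below the array medians in every group. The summed NK markers (15 genes) ran at 14.70 to 14.73, against 14.90 to 14.96. Of single markers, 5 of 15 NK and 2 of 11 T cell genes were called lower. The part of these markers in the result was not tested. In such bulk RNA, fewer cells of a type and less RNA per cell cannot be told apart.

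**Figure D2:**
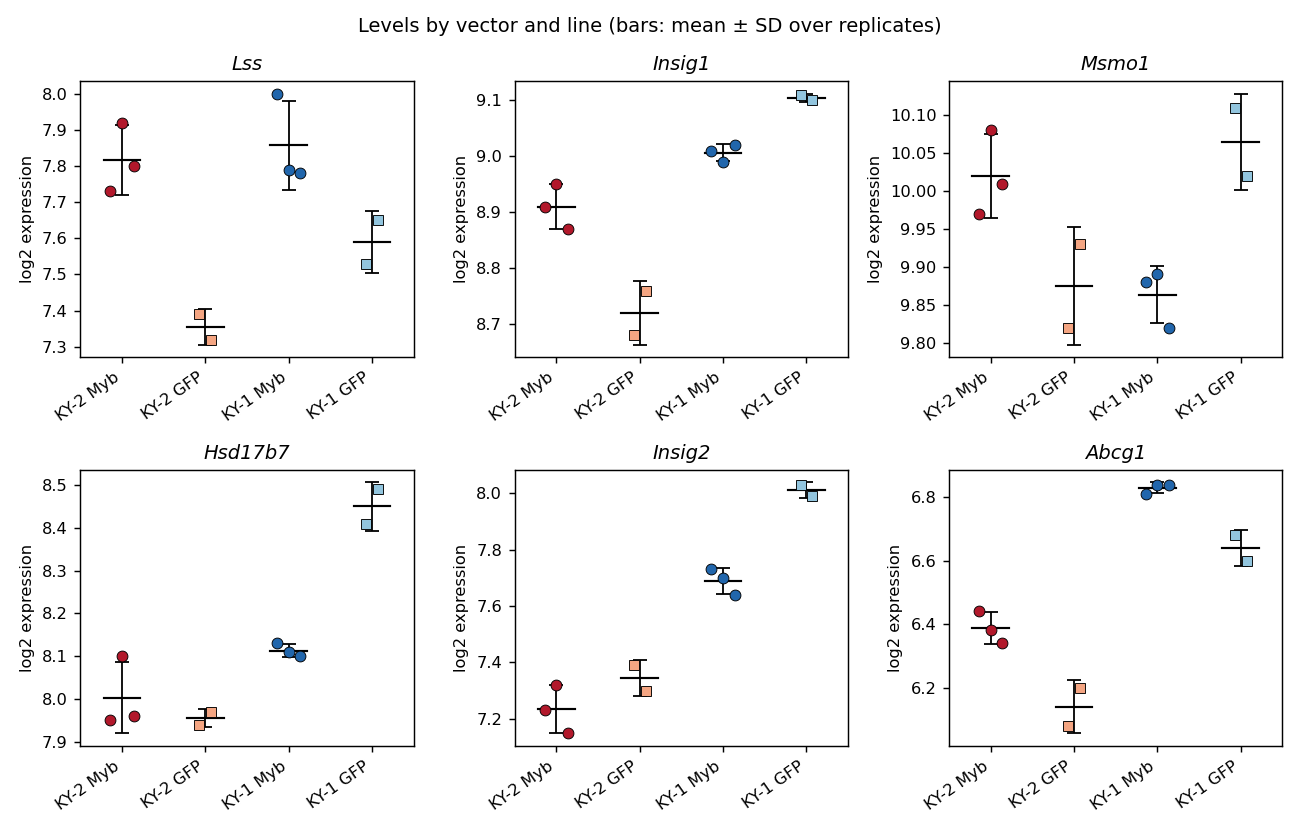
Level of selected genes (log2, y axis) in each replicate of the Myb and GFP groups of KY-2 and KY-1. Points are replicates and bars the mean ± SD. Lss lies higher with Myb in both lines, and Msmo1 and Insig1 lie higher with Myb in KY-2 and lower in KY-1.

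The order of the replicates was also counted, as a description. In KY-2, 6 of the 30 genes had every Myb replicate above every GFP replicate and 2 had every one below, together 8 of 30, where 31% of all genes separated (16.4% upward and 14.6% downward). In KY-1, 4 separated upward and 10 downward, where 26.9% of all genes separated (13% upward and 13.8% downward). Lss, the elongase gene Elovl6 and the cholesterol exporter gene Abcg1 stood above in both lines, and Nsdhl, a sterol C4 decarboxylase, stood below in both. These 4 are 13.3% of the 30 genes, beside 6.68% of all genes that kept one order in both lines. Msmo1, the methylsterol monooxygenase that starts removal of the C4 methyl groups, and Insig1 stood above in KY-2 and below in KY-1. Opposite orders were thus found in 6.67% of the 30 genes, beside 3.59% of all genes. The following 3 genes were chosen after their values were seen. Msmo1 was 9.97, 10.08 and 10.01 in KY-2 Myb, against 9.82 and 9.93 in KY-2 GFP, and 9.88, 9.89 and 9.82 in KY-1 Myb, against 10.11 and 10.02 in KY-1 GFP. Insig1, which retains SCAP when sterols are high, was 8.91, 8.95 and 8.87 in KY-2 Myb, against 8.68 and 8.76 in KY-2 GFP, and 9.01, 8.99 and 9.02 in KY-1 Myb, against 9.11 and 9.10 in KY-1 GFP. The opposite order in the lines did not reach the threshold when the difference of the effects was tested over all genes. The difference was 0.34 ± 0.11 for Msmo1 (limma adjusted p = 0.276) and 0.29 ± 0.10 for Insig1 (limma adjusted p = 0.316). In that test 0.843% of all genes were called (0.461% higher in KY-2 and 0.381% lower), and 0 of the 30 were. An unadjusted limma p under 0.05 was found for 3 of the 30, beside 2056 of the 19938 genes. Hsd17b7, a sterol ketone reductase, was 8.13, 8.11 and 8.10 in KY-1 Myb, against 8.41 and 8.49 in KY-1 GFP, and its KY-1 difference of -0.33 ± 0.08 had a limma adjusted p of 0.0902. Insig2, the second SCAP retention protein, had a KY-1 difference of -0.32 ± 0.08 (limma adjusted p = 0.116).

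By role, the remaining Myb differences were small and none passed. In the mevalonate route the 6 genes ran between -0.03 (Hmgcs1) and 0.13 (Mvk and Pmvk) in KY-2, and between -0.21 (Hmgcs1) and 0.24 (Pmvk) in KY-1. Hmgcs1, also chosen after its values were seen, was 8.99, 9.09 and 8.95 in KY-2 Myb, against 9.04 and 9.04 in KY-2 GFP, and 8.62, 8.58 and 8.55 in KY-1 Myb, against 8.78 and 8.82 in KY-1 GFP. The groups overlapped in KY-2, and in KY-1 every Myb replicate was lower, without passing the test (limma adjusted p = 0.319). From squalene onward, the genes other than Lss ran between -0.11 (Nsdhl) and 0.14 (Msmo1) in KY-2 and between -0.33 (Hsd17b7) and 0.25 (Ebp) in KY-1. The regulators and Stard4 ran between -0.11 (Insig2) and 0.19 (Insig1) in KY-2 and between -0.32 (Insig2) and 0.02 (Srebf1) in KY-1, and Srebf1, Srebf2 and Scap each lay within 0.10 of 0 in both lines. The fatty acid genes ran between -0.09 (Acly) and 0.18 (Elovl6) in KY-2 and between -0.10 (Fasn) and 0.14 (Elovl6) in KY-1, with Elovl6 highest in both, at 0.18 and 0.14. Abcg1 differed by 0.25 in KY-2 and 0.19 in KY-1 (limma adjusted p = 0.159 and 0.401), and its average over the lines had a limma adjusted p of 0.0645.

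The genes differed more between the lines than between the vectors. With the GFP vector, 15 of the 30 passed in KY-2 against KY-1, 8 higher and 7 lower, where 28.9% of all genes were called (13.6% higher and 15.2% lower). With the Myb vector, 17 passed, 12 higher and 5 lower, where 31.6% of all genes were called (14.7% higher and 16.9% lower), and after centring each array on its median the split was 7 higher and 6 lower. With GFP every KY-2 replicate stood above every KY-1 replicate for 13 of the 30 genes and below for 15, where 62.9% of all genes separated (27.2% upward and 35.7% downward). With Myb 14 separated upward and 7 downward, where 42.3% did (19.5% upward and 22.8% downward). The 12 genes called in both comparisons kept their direction, which is 80% of the GFP calls and 70.6% of the Myb calls, beside 78.7% and 71.8% over all genes. Among genes brighter than the median gene, a stratum that holds 29 of the 30, 20 of these 29 were called with GFP and 19 with Myb, where 54.8% and 59.5% of all genes in the stratum were called. The background among bright genes was thus higher than over all genes, and nothing particular to the 30 genes is read from their counts.

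**Figure D3:**
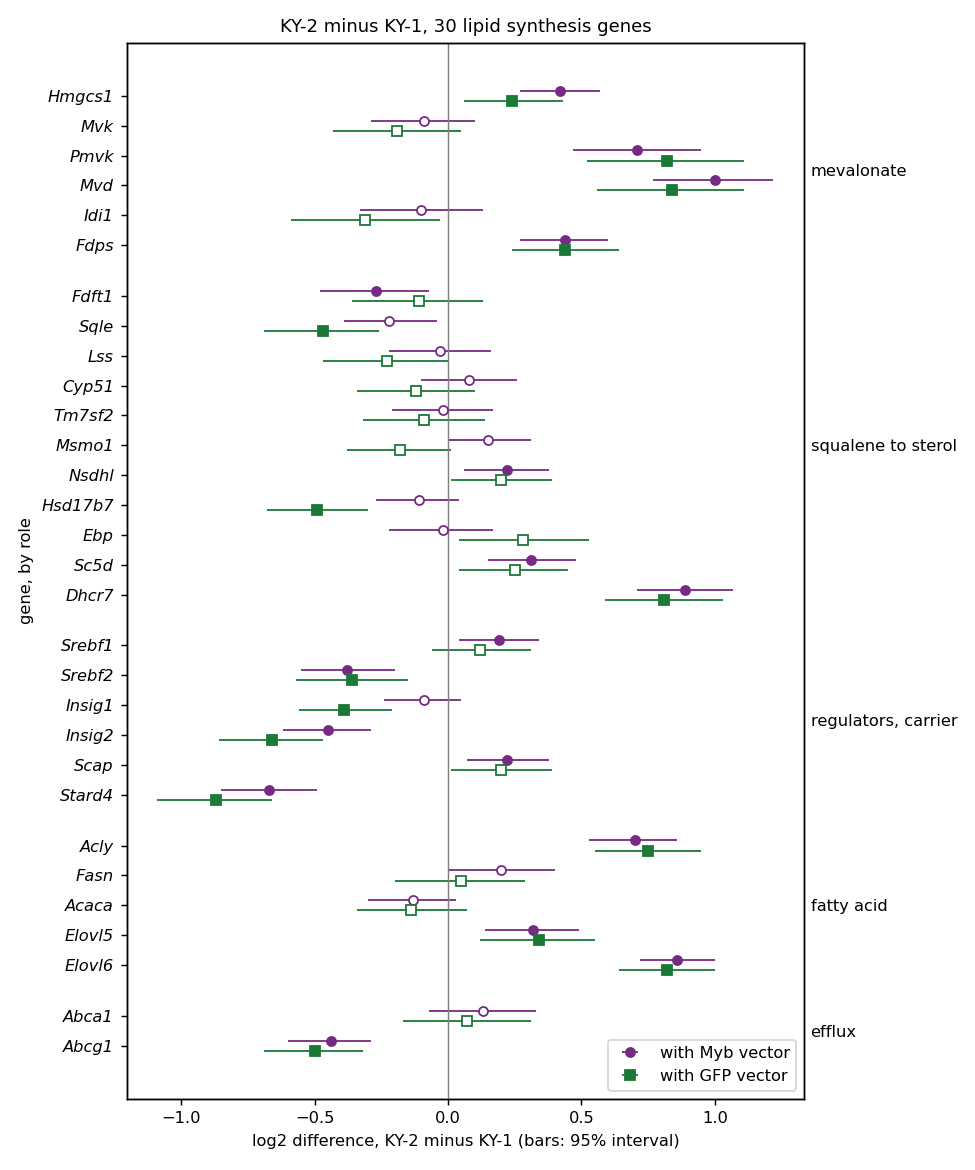
Difference between KY-2 and KY-1 (log2, x axis) for each of the 30 genes, with the Myb vector and with the GFP vector. Points are limma estimates, bars their 95% intervals, and filled markers have an adjusted p under 0.05. Mvd, Pmvk, Dhcr7, Elovl6 and Acly lie 0.70 or more above 0 with both vectors, and Stard4 lies furthest below 0.

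In the mevalonate route, 4 of the 6 measured genes were called higher in KY-2 with both vectors and none was called lower. Over all genes 13.6% were called higher with GFP and 14.7% with Myb. Among brighter genes tested alone, 54.8% and 59.5% were called in either direction, so the values below describe single genes. Mvd, which makes isopentenyl diphosphate in the last mevalonate step, was 9.38, 9.10 and 9.24 in KY-2 Myb, against 8.31, 8.39 and 8.03 in KY-1 Myb. With GFP it was 9.15 and 9.20 in KY-2, against 8.33 and 8.35 in KY-1. The lines did not overlap with either vector, and the difference was 1.0 ± 0.10 with Myb (limma adjusted p = 1.99e-05) and 0.84 ± 0.13 with GFP (limma adjusted p = 0.00043). Pmvk, the kinase that acts on phosphomevalonate, was 8.18, 8.08 and 7.99 in KY-2 Myb, against 7.49, 7.48 and 7.14 in KY-1 Myb, and 8.0 and 7.90 in KY-2 GFP, against 7.02 and 7.24 in KY-1 GFP. Every KY-2 replicate of Pmvk lay above every KY-1 replicate, by 0.71 ± 0.11 with Myb and 0.82 ± 0.13 with GFP. Fdps, the farnesyl diphosphate synthase, was higher by 0.44 ± 0.08 with Myb and 0.44 ± 0.09 with GFP. Hmgcs1, the HMG-CoA synthase that opens the route and whose window holds TCACCCCAC, was higher by 0.42 with Myb and 0.24 with GFP. Its GFP call (limma adjusted p = 0.0482) was lost in 14 of 21 other settings, leaving out any 1 replicate among them, where the difference lay between 0.21 and 0.26. Mvk, the mevalonate kinase, and Idi1, the isopentenyl diphosphate isomerase, did not pass, at -0.09 ± 0.09 and -0.10 ± 0.10 with Myb and -0.19 ± 0.11 and -0.31 ± 0.13 with GFP.

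From squalene onward the genes split. Dhcr7, the reductase of the last step to cholesterol, was 8.55, 8.62 and 8.60 in KY-2 Myb, against 7.86, 7.64 and 7.61 in KY-1 Myb. With GFP it was 8.64 and 8.62 in KY-2, against 7.78 and 7.86 in KY-1. The KY-2 values sat above all KY-1 values, by 0.89 ± 0.08 with Myb (limma adjusted p = 7.64e-06) and 0.81 ± 0.10 with GFP (limma adjusted p = 9.12e-05). Sqle, the squalene monooxygenase, was lower in KY-2 with GFP at -0.47 ± 0.10, and its Myb difference of -0.22 ± 0.08 did not pass (limma adjusted p = 0.0622). Hsd17b7 was likewise lower with GFP at -0.49 ± 0.09 and uncalled with Myb at -0.11 ± 0.07. With Myb, Fdft1, which makes squalene, was lower at -0.27 ± 0.09 and a second probe set of it gave -0.34 ± 0.08. Nsdhl and Sc5d, a sterol desaturase, were higher with Myb at 0.22 ± 0.07 and 0.31 ± 0.08. The Fdft1 and Nsdhl calls were lost in 10 and 11 of 21 other settings, several of which leave out 1 replicate, at -0.33 to -0.18 and 0.16 to 0.26, and that of Sc5d after median centring alone. Lss, Cyp51 (lanosterol demethylase), Tm7sf2 (a sterol C14 reductase), Msmo1 and Ebp (a sterol isomerase) passed in neither comparison, with differences between -0.23 and 0.28.

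Among the regulators, Stard4, Insig2 and Srebf2 were lower in KY-2 with both vectors. Stard4, which moves cholesterol between membranes, was 8.17, 8.33 and 8.37 in KY-2 Myb, against 8.90, 9.03 and 8.95 in KY-1 Myb, and 8.17 and 8.30 in KY-2 GFP, against 9.09 and 9.12 in KY-1 GFP. All KY-2 values lay below all KY-1 values, with differences of -0.67 ± 0.08 with Myb and -0.87 ± 0.10 with GFP. Insig2 was 7.23, 7.32 and 7.15 in KY-2 Myb, against 7.73, 7.70 and 7.64 in KY-1 Myb, and 7.39 and 7.30 in KY-2 GFP, against 8.03 and 7.99 in KY-1 GFP. The lines did not overlap, and Insig2 differed by -0.45 ± 0.07 with Myb and -0.66 ± 0.09 with GFP. Insig1 was lower with GFP at -0.39 (limma adjusted p = 0.00337) and uncalled with Myb. Srebf2, the SREBP gene tied mainly to sterol enzymes, was lower at -0.38 ± 0.08 with Myb and -0.36 ± 0.10 with GFP, although another probe set of it carries several symbols and was not used. Srebf1, tied mainly to fatty acid genes, and Scap were called with Myb, higher at 0.19 (limma adjusted p = 0.0497) and 0.22 ± 0.07, and were not called with GFP. The Srebf1 and Scap calls were lost in 15 and 8 of 21 other settings, at 0.13 to 0.23 and 0.16 to 0.27, and the Srebf2 call with GFP was lost without KY-1 GFP replicate 3 or KY-2 GFP replicate 2, at -0.44 to -0.28 over all settings. The GFP and Myb comparisons rest on different arrays of the same lines. The lower KY-2 GFP values of Insig1 also enter its Myb minus GFP difference in KY-2.

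**Figure D4:**
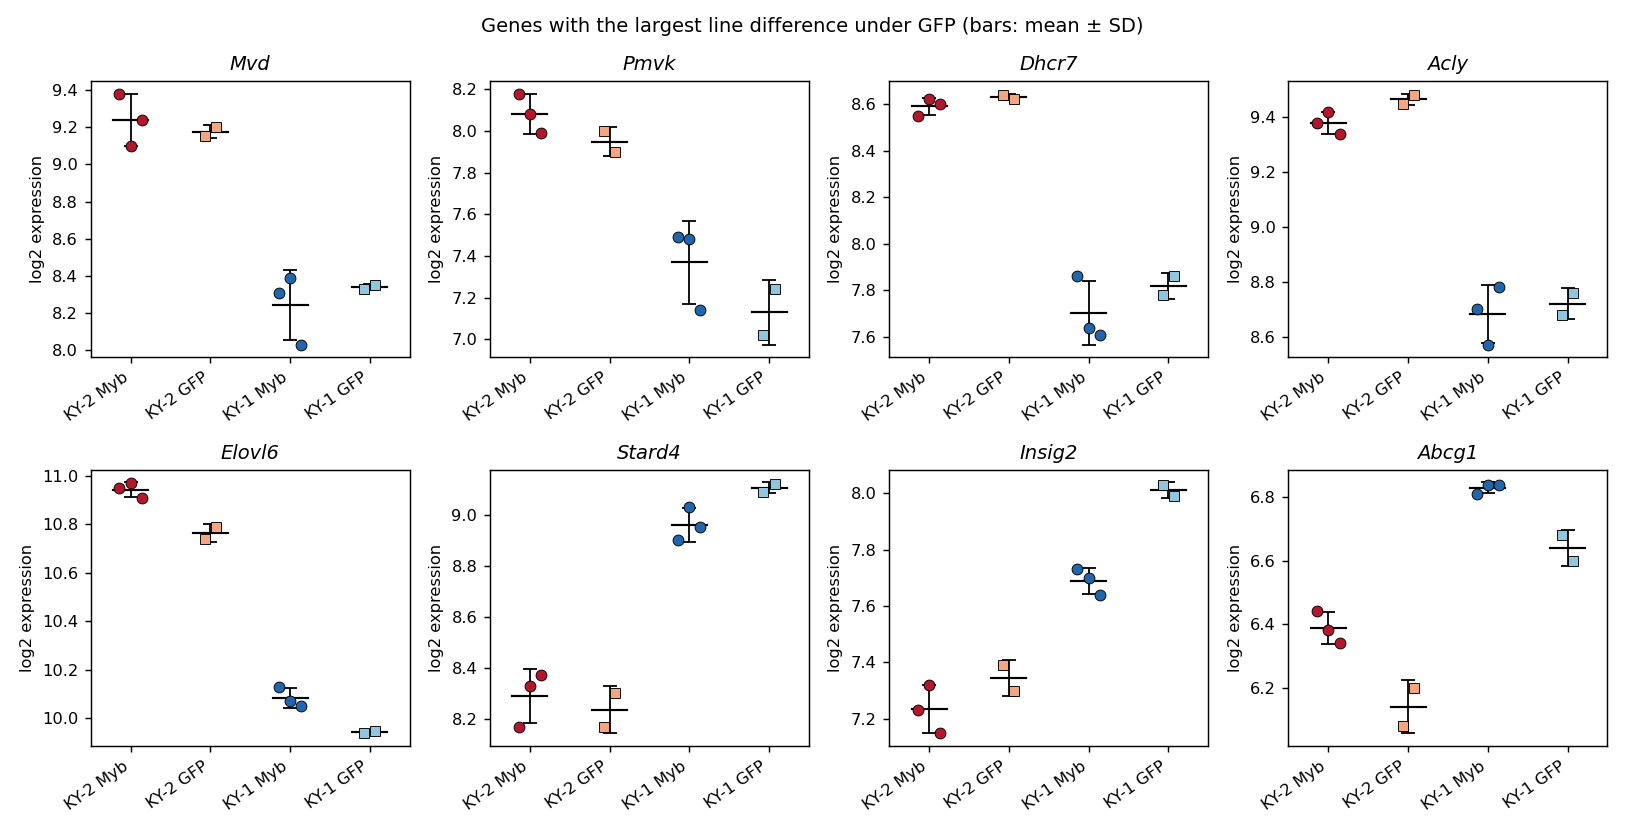
Level of the 8 genes with the largest called difference between the lines with GFP (log2, y axis) in each replicate of KY-2 Myb, KY-2 GFP, KY-1 Myb and KY-1 GFP. Points are replicates and bars the mean ± SD. The KY-2 values of Mvd, Pmvk, Dhcr7, Elovl6 and Acly lie above all KY-1 values, and those of Stard4, Insig2 and Abcg1 lie below.

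Fatty acid genes were uneven. Acly, the ATP citrate lyase that supplies cytosolic acetyl-CoA, was 9.38, 9.42 and 9.34 in KY-2 Myb, against 8.70, 8.57 and 8.78 in KY-1 Myb, and 9.45 and 9.48 in KY-2 GFP, against 8.68 and 8.76 in KY-1 GFP. Its KY-2 replicates all lay above the KY-1 ones, by 0.70 ± 0.07 with Myb and 0.75 ± 0.09 with GFP. Elovl6, which lengthens saturated and monounsaturated fatty acids, was 10.95, 10.97 and 10.91 in KY-2 Myb, against 10.13, 10.07 and 10.05 in KY-1 Myb, and 10.74 and 10.79 in KY-2 GFP, against 9.94 and 9.95 in KY-1 GFP. It was higher by 0.86 ± 0.07 with Myb and 0.82 ± 0.08 with GFP, with no overlap. Elovl5, which acts on polyunsaturated fatty acids, was higher by 0.32 ± 0.08 with Myb and 0.34 ± 0.10 with GFP. Median centring ended both Elovl5 calls, and the GFP call was also lost without either KY-2 GFP replicate or without the averaged KY-1 GFP pair, at 0.27 to 0.41 over all settings. Fasn, the fatty acid synthase, and Acaca, the acetyl-CoA carboxylase, did not pass, at 0.20 ± 0.09 and -0.13 ± 0.07 with Myb and 0.05 ± 0.11 and -0.14 ± 0.09 with GFP.

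Of the exporters, Abcg1 was 6.44, 6.38 and 6.34 in KY-2 Myb, against 6.81, 6.84 and 6.84 in KY-1 Myb, and 6.08 and 6.20 in KY-2 GFP, against 6.68 and 6.60 in KY-1 GFP. All KY-2 values lay below all KY-1 values, with differences of -0.44 ± 0.07 with Myb and -0.50 ± 0.08 with GFP. Abca1, the exporter that loads cholesterol onto apolipoprotein A-I, lay below the array medians in every group and did not pass. Beside all these line differences stand the T cell markers, whose 11 genes summed to 12.74 to 12.81 in KY-2 Myb and 12.96 to 13.06 in KY-2 GFP, against 8.90 to 9.01 in KY-1 Myb and 8.63 to 8.64 in KY-1 GFP, with Cd4 below the array medians in every group, and the mast cell markers, whose 10 genes summed to 8.53 to 8.65 and 8.58 to 8.81 in those KY-2 groups, against 10.59 to 10.66 and 10.52 to 10.65 in the KY-1 groups. The T cell sums of KY-2 were carried mainly by Cd3g, Cd8a and Cd28. In KY-1 the mast cell sum was close to the level of Kit alone, given above. In KY-2 it lay further above Kit, which was at 7.87 with Myb and 8.07 with GFP. Of the 10 mast cell genes, 7 to 9 lay below the median gene. Their part in the line differences was not tested.

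Other genes of the SREBP pathway, listed by function, included 23 tested genes outside the 30. With Myb, 2 of 23 rose in KY-2, Fads2 (a fatty acid desaturase) at 0.76 and Gpam (glycerol phosphate acyltransferase) at 0.36, and 0 fell. This is 8.7% of the list, beside 2.83% of all genes and 7.48% of brighter genes tested alone. Here and below, the share of brighter genes comes from a separate fit of those genes. The share of the list comes from the fit over all genes, so these shares are not counted alike. In KY-1, 1 rose, the malic enzyme gene Me1 at 0.66 ± 0.09, and 1 fell, Fads2 at -0.49. This is 8.7%, beside 1.22% of all genes and 4.23% of brighter genes, and 0 of 23 passed in the average of the lines. In the same KY-1 comparison the T cell gene Cd3g was called higher with Myb at 2.52, as were the mast cell genes Mcpt8 at 1.76 and Cpa3 at 1.10, and Ncr1 was called lower at -1.96. Calls there covered 1 of 11 T cell, 2 of 10 mast cell, 4 of 15 NK and 1 of 12 myeloid markers. The summed T cell markers ran at 8.90 to 9.01 in KY-1 Myb, against 8.63 to 8.64 in KY-1 GFP, with Cd4 below the array medians. Within that sum Cd3g went from 4.62 with GFP to 7.14 with Myb. Cd3e (-0.42), Bcl11b (-0.25) and Cd8b1 (-0.17) were among those lower with Myb, all uncalled. The summed mast cell markers ran at 10.59 to 10.66, against 10.52 to 10.65. The part of these markers in the KY-1 changes was not tested. The KY-2 call of Fads2 held in all 21 other settings, whereas that of Gpam was lost in 15 of 21 (0.31 to 0.41), that of Me1 in KY-1 in 3 of 21 (among them without either KY-1 GFP replicate, 0.60 to 0.75) and that of Fads2 in KY-1 in 11 of 21 (-0.57 to -0.41). Between the lines, 10 were higher and 4 lower in KY-2 with Myb (60.9% of the list, beside 31.6% of all genes and 59.5% of brighter genes), and 8 higher and 5 lower with GFP (56.5%, beside 28.9% and 54.8%). Fads2 lay near or below the array medians in KY-1, so its line differences rest on a level not shown to be above background there. The 4 with the smallest p with GFP were Fads2 at 2.81, Me1 at 1.17, the stearoyl-CoA desaturase Scd1 at -1.07 and the desaturase Fads1 at 1.10, and with Myb they were Fads2 at 4.06, the ubiquitin ligase Rnf145 at 1.08, the citrate carrier Slc25a1 at 1.15 and Fads1 at 1.05.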

How the data were processed

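Per the labels, total RNA of GFP-sorted KY-2 and KY-1 cells was hybridised to 12 single-colour arrays. The deposited values are log2 expression per probe set; the submitters' processing notes list Partek and RMA. Their versions and options were not given in the sources used here. Precision is limited by the number of arrays. Values ran from 1.49 to 13.96, with array medians between 5.31 and 5.42, and no detection calls were used.

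Of 35556 probe sets, 21789 were paired with 1 symbol, 1621 with several, and the annotation lists no entry for 12146. For the 999 genes with several such probe sets the brightest over the 12 arrays was kept, which gave 19938 genes. The symbols were checked through Entrez identifiers, of which 91 were not found. Within groups, arrays were compared by the robust SD of their log2 difference. It was 0.0434 to 0.0469 for GFP arrays 1 and 2 and for Myb arrays 3 and 4 of KY-1, over 10624 probe sets with a mean above 7, against 0.102 to 0.172 in other pairs of a group. Each close pair was averaged, which gave 10 replicates, whereas the design had planned 12.

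Differences were fitted with limma 3.58.1 (R 4.3.3) in 1 model of the 4 group means (6 residual and 4.89 prior degrees of freedom) and p-values adjusted by Benjamini-Hochberg across the 19938 genes (threshold 0.05), without a filter on dim probe sets. The script was tested on simulated data. It gave Myb minus GFP for KY-2, for KY-1 and averaged, the difference of those effects, and KY-2 minus KY-1 with each vector. The members and lists were chosen with earlier results of these data known. Every member was named, and values per replicate were given for members called in a Myb contrast and the 8 largest called line differences with GFP; of each further list at most 4 genes by p were named per comparison. Some listed genes are not analysed here. Motifs were searched on both strands of 300-base RefSeq windows.

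Alternatives tried were separate arrays, a replicate block, brighter genes only, averaged probe sets per gene, median centring, a second quantile normalization, trended moderation, robust moderation, array weights, only the groups compared, leaving out each replicate, and, added after the data were seen, a KY-1 block with 2 levels and swapped-in second probe sets.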

Additional observations from a re-analysis of the deposited data

Results flagged for a closer look

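For 9 genes a test of the Myb effect in KY-2 minus that in KY-1 passed among all listed genes, of which 6 were cell type markers and 0 were among the 30 genes of sterol and fatty acid synthesis. The desaturase gene Fads2 differed by 1.25 ± 0.14 (limma adjusted p = 0.0012). Its values were 8.99, 9.01 and 8.89 in KY-2 Myb, against 8.25 and 8.15 in KY-2 GFP, and 5.02, 4.93 and 4.76 in KY-1 Myb, against 5.31 and 5.47 in KY-1 GFP. It rose in KY-2 and fell in KY-1, where it stood near or below the array medians. The malic enzyme gene Me1 differed by -0.79 ± 0.13 (limma adjusted p = 0.018). Its values were 7.79, 7.88 and 7.89 in KY-2 Myb, against 8.0 and 7.98 in KY-2 GFP, and 7.60, 7.31 and 7.54 in KY-1 Myb, against 6.84 and 6.81 in KY-1 GFP. It rose in KY-1 and did not pass in KY-2. The Me1 test of the difference lost its call in 5 of 20 other settings, each of which leaves out 1 replicate (without either KY-1 GFP replicate, either KY-2 GFP replicate or the averaged KY-1 Myb pair), at -0.88 to -0.74 over all settings, while that of Fads2 held in all 20. Myb itself differed by 3.11, since the KY-2 GFP level was the lower of the GFP groups while both Myb groups stood near 9.74 and 9.57. The KY-2 GFP level of Myb lay below the array medians, so this value is not shown to rest on a signal above background. Among NK markers the difference was 1.86 for Ncr1, -1.0 for Prf1 and -0.70 for Gzma. Among T cell markers it was -2.63 for Cd3g and -0.84 for Cd3d, and for the mast cell marker Mcpt8 it was -1.93. Groups of 2 or 3 replicates are too small for a search for single outlying samples, so none was made.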

How the results depend on the processing

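Of 34 calls of the 30 genes, 23 held in every setting tried and 0 changed sign. For Myb minus GFP in KY-1 (0 called in the main analysis), 3 genes passed with all 12 arrays as separate replicates, 2 among brighter genes and 2 with trended moderation, all lower, and leaving out 1 replicate gave 0 to 0. In KY-2 (1 called), 2 passed among brighter genes, and 0 passed with a replicate block on 12 arrays, with median centring or with only the groups compared, while leaving out 1 replicate gave 0 to 1. In the average (1 called), 4 passed with 12 arrays, 4 among brighter genes and 3 with trended moderation, and leaving out 1 replicate gave 0 to 1. For the difference of the effects (0 called), trended moderation called 1, Msmo1. The cause of these shifts was not tested. Counts between the lines ranged over 12 to 21 with GFP and 13 to 20 with Myb, within 1.5 times the 15 and 17 reported, and a replicate block moved no other count by more. Deviations of same-numbered arrays from their group means correlated at -0.005 and 0.115 in KY-2 and at -0.226, -0.360 and -0.465 in KY-1. KY-2 GFP holds 2 arrays, whose deviations mirror each other, and KY-1 holds the close pairs. These values therefore cannot decide whether replicate numbers pair the samples. After the data were seen, KY-1 arrays were also set in 2 sets that deviated together (GFP 1 and 2 with Myb 3 and 4; GFP 3 with Myb 1 and 2). All KY-2 arrays were placed in the set of KY-1 GFP 1 and 2 and Myb 3 and 4, a choice that no label gives. With that block, 15 genes passed between the lines with GFP (7 higher, 8 lower) and 14 with Myb. These line counts depend on that placing, so they cannot show whether the 2 sets affect the line differences.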

Other observations

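Genes of LXR signalling and lipid handling were the last group measured, with 16 of 18 listed genes tested. With Myb, Lrp8, a lipoprotein receptor, rose by 0.49 ± 0.08 in KY-2. It was the 1 of 16 called there (6.25%, beside 2.83% of all genes and 7.48% of brighter genes). Its call was lost without KY-2 GFP replicate 1 or 2, at 0.45 to 0.53 over all settings. In KY-1, Lrp8 differed by 0.01, at 6.79 with Myb and 6.78 with GFP, against 6.87 and 6.38 in KY-2. In KY-1 and in the average of the lines 0 of 16 were called, where 1.22% and 3.1% of all genes were. Between the lines with GFP, 4 of 16 were higher in KY-2 and 3 lower. This is 43.8%, beside 28.9% of all genes and 54.8% of brighter genes. For this list too, the shares of brighter genes come from a separate fit of those genes and are not counted alike. Some of the 16, such as Scarb1 and Vldlr, lay below the array medians in every group. Pltp, the phospholipid transfer protein, was 7.80 and 7.65 in KY-2 GFP, against 10.48 and 10.45 in KY-1 GFP, with a difference of -2.74. Mylip, a ligase that degrades lipoprotein receptors, differed by -1.79 against a KY-2 level of 5.03, below the array medians and not shown to be above background, and the ester hydrolase genes Nceh1 and Lipa by 1.07 and 0.69. With the Myb vector 3 were higher and 3 lower (37.5%, beside 31.6% of all genes and 59.5% of brighter genes). They were led by Pltp at -2.97, Mylip at -1.75 and Nceh1 at 1.25. Apoe, an apolipoprotein, was called at 0.28, and its call was lost without KY-2 Myb replicate 1.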
